A study of Rattus norvegicus with 12 samples.

Results

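Wound tissue treated with s-GAG was compared with wound tissue treated with normal saline (control) in diabetic rats. The comparison used the 3 s-GAG and the 3 control libraries, 6 of the 12 libraries of the series, with 1 library per treatment on each of days 3, 7 and 14 after wounding. Each s-GAG library was set beside the control library of the same day, and the 3 days took the place of replicates, so a gene was described by whether its difference had the same direction on all 3 days. The s-GAG, labelled GAG, is the sulfated, heparin-like glycosaminoglycan isolated from the dried snail mucus gel (d-SMG) of *Achatina fulica*. The other 6 libraries came from wounds under d-SMG itself or under a commercial alginate dressing (Alg).

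All rats of the 4 groups were male Sprague-Dawley (SD) animals made diabetic with streptozotocin, which destroys the insulin-producing cells of the pancreas. Wounds were round, punched through the whole skin of the shaved back. The study's methods give an age in weeks for the rats as supplied, which is not restated here, but no age on the day of wounding and no number of animals per library, so a test measures the spread between these libraries, which also differ in day. The comparison asked how a purified mucus glycosaminoglycan alters gene expression in the tissue of a slow-healing diabetic wound.

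The values are counts of reads per gene. The 6 libraries held between 14928702 and 38302461 reads on genes, the deepest being s-GAG day 7 and the shallowest control day 7. The s-GAG day 14 library stood apart from the other 5: its composition scaling factor (TMM, edgeR's trimmed mean of M values) was 0.743, against 0.984 to 1.10. Levels below are CPM, a gene's reads brought to one common library total after these factors, and they compare a gene between libraries, not genes with each other. Reads as counted are given where control held few, and these are not scaled for depth. Markers of skin and its appendages were read in all 6 libraries, among them Krt5 and Krt14 of keratinocytes, Col1a1 and Col3a1 of fibroblasts, Pecam1 of endothelium and Cd68 of macrophages. The samples also held skeletal muscle, whose sarcomere genes took between 8.09 and 10.6% of the reads of the control libraries and between 6.69 and 13.1% of those of the s-GAG libraries. In such bulk samples fewer cells of a type and less RNA per cell cannot be told apart.

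Wound repair passes through overlapping phases of inflammation, new tissue growth and remodelling. In diabetic wounds macrophages and inflammatory mediators are known to persist. Keratinocytes close the surface, and hair follicles at the wound edge hold stem cells that can feed this layer. A growing follicle builds the hair shaft from a set of type I and type II hair keratins cross-linked by keratin-associated proteins, surrounds it with an inner root sheath that has keratins of its own, and is driven by Wnt and Shh signals. Glycosaminoglycans of the heparin and heparan sulfate type bind many growth factors and chemokines, and cells carry them on syndecan and glypican core proteins.

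No gene of the 15672 tested passed an adjusted p of 0.05 in either direction (0% called) by edgeR's quasi-likelihood test with day as a block, and the smallest adjusted p was 0.0781. At an unadjusted p under 0.05 by the same test, 871 genes (5.56%) were higher and 580 genes (3.7%) were lower under s-GAG. Direction was shared by all 3 days for 2258 higher genes (14.4%) and 2022 lower genes (12.9%). Signs of 3 days can combine in 8 ways, and an even spread over these would put 12.5% of genes in each, so the shares over all genes are close to that value. Over all genes tested, the log2 ratios of days 3 and 7 had a Pearson correlation of 0.34, those of days 7 and 14 one of 0.28 and those of days 3 and 14 one of -0.0011, as a description in which genes of a library are not independent. With a log2 ratio of at least 1 on every day, 453 genes were higher (2.89%) and 90 genes were lower (0.574%). The lowest of the 3 libraries of one group lay above the highest of the other for 1586 genes higher (10.1%) and 1108 genes lower (7.07%) under s-GAG. Other tests gave other counts at an adjusted p of 0.05: DESeq2 called 256 genes higher (1.63%) and 31 lower (0.198%), and edgeR on the 6 libraries alone called 12 higher (0.0766%) and 0 lower (0%). In the last fit 309 genes were lower at an unadjusted p under 0.05. Leaving out the control day 7 library, the control day 14 library or the s-GAG day 3 library moved the 1451 genes at an unadjusted p under 0.05 to 920, 849 and 2262, and leaving out the whole of day 7 moved them to 639. Genes below are therefore given as higher or lower with their values, and not as changed. Counts of list members below are to be read beside the shares over all genes in this paragraph. Of these 1451 genes, 1354 had the same direction on all 3 days.

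Hair follicle genes stood higher in every s-GAG library than in every control library. All 28 tested members of a list of 29 genes of the hair shaft, the inner root sheath and follicle transcription factors were higher on all 3 days, and 27 of them were at an unadjusted p under 0.05. All 28 also had s-GAG libraries that did not overlap the control libraries. Members with few control reads could pass the filter on low counts only through s-GAG, d-SMG or Alg libraries. Among them were Krt28, Krt31, Krt33b, Krt35, Krt36, Krt81, Krt84 and Krt85. For such members these counts, and those below with a day or library left out, are not independent of that filter. How many of the 28 are such members was not counted. The median of the fitted log2 fold changes was 6.78 beside 0.0039 for all genes tested. A different measure, the median over genes of the mean of the 3 day ratios, was 5.83 with counts under 3 reads set to 3. The medians of the day ratios were 7.15 on day 3, 5.83 on day 7 and 4.40 on day 14. None of the 28 had an adjusted p under 0.05 in the 12-library edgeR fit, while DESeq2 called 26 of them. With each day or each of the 6 libraries left out in turn, between 22 and 28 of the 28 were at an unadjusted p under 0.05.

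Krt35, a type I keratin of the hair shaft on chromosome 10, had the largest smallest day ratio of all genes named by that rule. It had 2, 4 and 44 reads in the control libraries of days 3, 7 and 14, and 2932, 5593 and 12121 reads in the s-GAG libraries. These were 0.0840, 0.273 and 2.15 CPM in control and 168, 144 and 828 CPM under s-GAG. The lowest s-GAG library lay far above the highest control library, and control day 14 was the highest of its group. The fold was 528 on day 7 and 385 on day 14. On day 3, with 2 control reads, the log2 ratio was 10.97 with an exact 95% counting interval of 9.11 to 14.02. The fitted log2 fold change was 9.18 ± 1.88 (SE, n = 3 days) at an adjusted p of 0.399 by edgeR. Here and below the SE comes from the fit of all 12 libraries and is not the spread of the 3 day ratios.

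Krt28, an inner root sheath keratin, had 2, 3 and 31 reads in control and 831, 1564 and 1908 reads under s-GAG. Krt71, a further inner root sheath keratin, had 245, 155 and 4190 reads in control and 18392, 31956 and 15559 reads under s-GAG. Its level was 10.3, 10.6 and 205 CPM in control and 1055, 822 and 1063 CPM under s-GAG. The s-GAG level of Krt71 was thus nearly even over the days, and its fold was 103, 77.8 and 5.19, control being higher on day 14. Krt25, which pairs with Krt71 in the sheath, had 11, 42 and 1269 reads in control and 12939, 19259 and 28458 reads under s-GAG.

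The promoters of Krt35, Krt28 and Krt71 are shown as examples of hair follicle genes that held TATAAA, which some other members of the list lacked. They are given as the 250 bases before the annotated start, from RefSeq on build GRCr8, on the strand of the gene and from 5′ to 3′, with TATAAA in capitals. The intervals are chr10:85529969-85530218 for Krt35, chr10:84824858-84825107 for Krt28 and chr7:134761034-134761283 for Krt71, all on the minus strand.
Krt35: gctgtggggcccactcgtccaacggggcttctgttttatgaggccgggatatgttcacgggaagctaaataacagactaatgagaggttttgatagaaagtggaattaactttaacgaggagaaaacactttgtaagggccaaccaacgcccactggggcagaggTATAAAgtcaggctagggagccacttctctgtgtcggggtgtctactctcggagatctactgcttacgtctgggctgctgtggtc
Krt28: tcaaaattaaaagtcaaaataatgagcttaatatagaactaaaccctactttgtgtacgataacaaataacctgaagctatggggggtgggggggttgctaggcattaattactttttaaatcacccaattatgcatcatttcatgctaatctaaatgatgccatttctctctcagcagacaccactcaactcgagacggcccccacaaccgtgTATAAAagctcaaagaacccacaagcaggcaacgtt
Krt71: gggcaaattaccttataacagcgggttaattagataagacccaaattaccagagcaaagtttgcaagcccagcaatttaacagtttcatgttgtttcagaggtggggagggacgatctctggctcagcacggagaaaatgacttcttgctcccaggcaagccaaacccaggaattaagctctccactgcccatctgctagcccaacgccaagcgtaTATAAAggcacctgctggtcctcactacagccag
The match began 85, 36 and 34 bases before the start. TATAAA, the core of the TATA box, was found on either strand in 13 of the 23 hair follicle genes with a promoter in the table (56.5%), but not in Krt85 or Krt36, in 13.1% of all 27457 promoters and in 7.61% of the promoters of genes tested. CTTTGAA or CTTTGTT, the letters bound by LEF1 and TCF factors, was found in 5 of the 23 (21.7%) and in 9.31% of all promoters. These are matches of letters and not mapped sites, and each motif was counted on its own, without regard to overlap with another.

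The other hair shaft keratins followed Krt35. Krt36 was listed at 0 reads in control on days 3 and 7 and at 5 reads on day 14, and had 119, 347 and 420 reads under s-GAG. Against a floor of 3 reads per library it was at least 54.2-fold higher on day 3 and at least 43.6-fold higher on day 7, and it was 117-fold higher on day 14. Krt85 had 1, 8 and 101 reads in control and 3684, 4689 and 4371 reads under s-GAG, with a fitted log2 fold change of 8.13 ± 2.01 (SE, n = 3 days). Krt31 had 1, 5 and 62 reads in control and 2299, 2151 and 2965 reads under s-GAG. Krt33b, Krt81 and Kb23, a further keratin, were of the same kind, with fitted log2 fold changes of 6.82, 8.15 and 9.22. In each of these genes control day 14 was the highest control library and still lay below every s-GAG library.

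Keratin-associated proteins, which cross-link the hair keratins, were examined after their values had been seen. Of the 29 members found, 19 passed the filter on low counts, which they could do through the s-GAG libraries, and all of those 19 were higher on all 3 days. Their reads summed to 0.0420, 0.409 and 1.32 CPM in control and to 155, 69.1 and 99.2 CPM under s-GAG. Krtap7-1, on chromosome 11, was listed at 0, 0 and 3 reads in control and had 492, 488 and 209 reads under s-GAG. It was at least 224-fold higher on day 3 and at least 61.4-fold higher on day 7, and on day 14, with 3 control reads, the log2 ratio was 6.60 with an exact 95% counting interval of 5.04 to 8.89. Genes of this family lie in clusters and resemble each other, so reads may be shared between them.

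Regulators of the follicle were higher too, by smaller amounts. Shh, the ligand that drives growth of the follicle bud, had 45, 3 and 12 reads in control and 138, 186 and 53 reads under s-GAG. Its fold was 4.19 on day 3 and 6.17 on day 14. On day 7, with 3 control reads, its log2 ratio was 4.55 with an exact 95% counting interval of 2.98 to 6.84. Lef1, a transcription factor that answers to Wnt signals, had 34, 72 and 67 reads in control and 837, 1438 and 1306 reads under s-GAG. Hoxc13, which drives hair keratin genes, had 3, 5 and 4 reads in control and 77, 196 and 40 reads under s-GAG. Foxn1 had 15, 2 and 19 reads in control and 99, 203 and 74 reads under s-GAG, and Msx2 had 15, 9 and 18 against 262, 495 and 633. No control library reached the lowest s-GAG library in any of these 5 genes. Tyrp1, the pigment cell enzyme of the list, did not pass the filter, with 0 reads in every control library and 3, 2 and 124 reads under s-GAG.

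**Figure D1:**
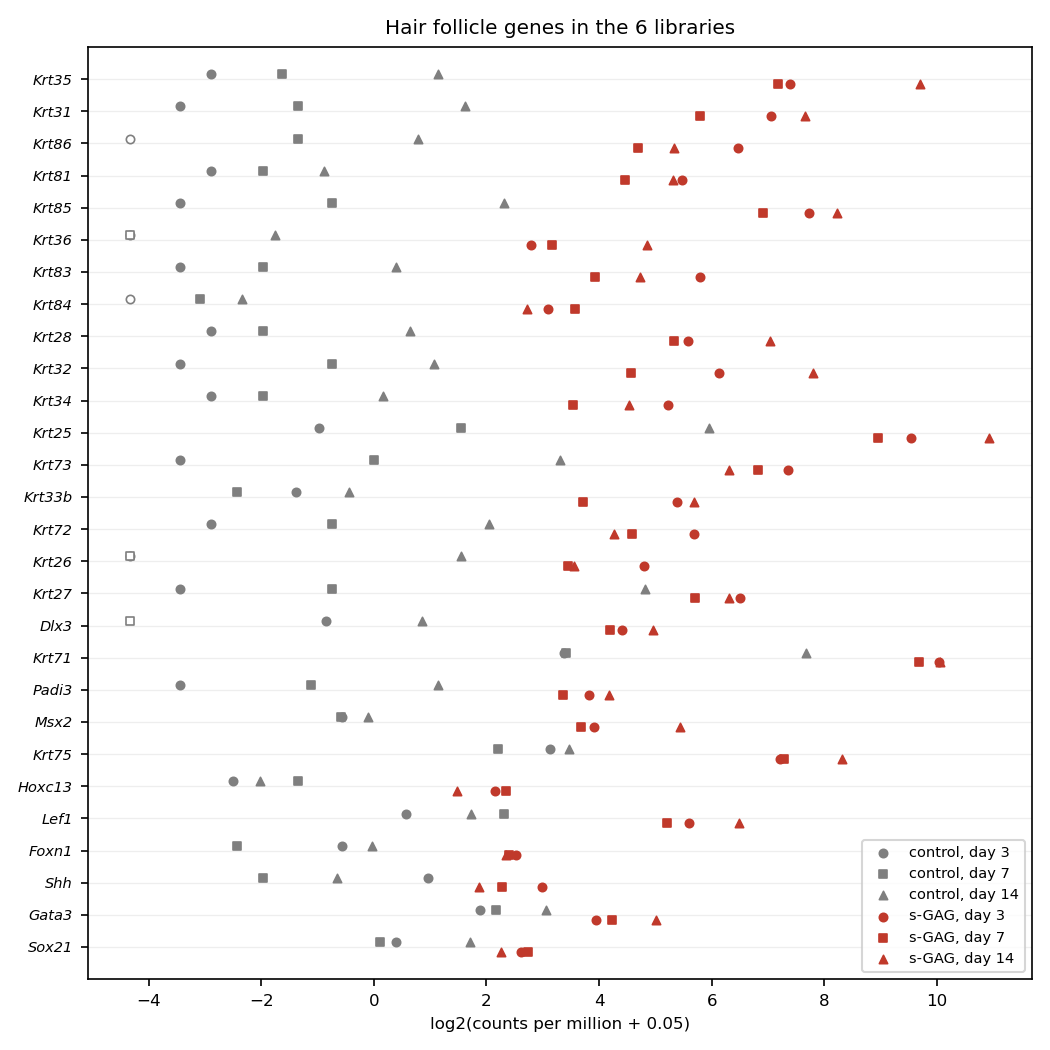
Levels of the 28 tested hair follicle genes, as log2 of CPM plus a small constant, in the control (grey) and s-GAG (red) libraries of day 3 (circle), day 7 (square) and day 14 (triangle), with open symbols for 0 reads. In every gene the 3 s-GAG libraries lie above the 3 control libraries, as for Krt35 with 2 to 44 reads in control and 2932 to 12121 under s-GAG.

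Genes of hair and cornified tissue also led the ranking by the smallest day ratio, next to the keratins. Mt4, a metallothionein of stratified epithelia, had 2, 4 and 11 reads in control and 1610, 2145 and 9172 reads under s-GAG. Vsig8, an immunoglobulin-family protein found in the hair shaft, had 5, 6 and 15 reads in control and 731, 1355 and 1660 reads under s-GAG, which were folds of 200, 85.2 and 155. Tchhl1, a relative of trichohyalin, had 13, 27 and 289 reads in control and 4572, 7787 and 11509 reads under s-GAG. In the edgeR fit of the 6 libraries alone, Mt4, Vsig8, Krt35, Krt28, Krt36, Krt81 and Krt33b were among the 12 genes called.

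Keratinocyte genes were higher with smaller ratios and wider spread. Of 16 genes of basal and wound-edge keratinocytes, 10 were higher on all 3 days, 0 were lower on all 3, and 2 were at an unadjusted p under 0.05. Their median log2 ratio was 1.09, 1.52 and 1.12 on days 3, 7 and 14, and 7 of the 16 had libraries that did not overlap. Their summed level was 6289, 6121 and 8566 CPM in control and 13615, 20224 and 43393 CPM under s-GAG. Krt17, a keratin of wound edges and of the follicle, was at 224, 199 and 629 CPM in control and at 1265, 2444 and 7761 CPM under s-GAG, with folds of 5.64, 12.3 and 12.3. Tp63, the master transcription factor of basal keratinocytes, was at 59.4, 50.5 and 106 CPM in control and at 221, 266 and 317 CPM under s-GAG, with a fitted log2 fold change of 1.97 ± 0.75 (SE, n = 3 days) at an adjusted p of 0.508 by edgeR. Krt14, the type I keratin of the basal layer, was at 3093, 2554 and 2416 CPM in control and at 5682, 8462 and 24665 CPM under s-GAG. Without day 3 the list had 8 members at an unadjusted p under 0.05, and without day 7, or without the control day 7, control day 14, s-GAG day 3 or s-GAG day 7 library, it had 0.

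Other skin appendages and layers were less uniform. Of 27 genes of the suprabasal and cornified layers, 7 were higher on all 3 days and 2 were at an unadjusted p under 0.05, and the list's median was 1.35, 2.04 and -1.20 on the 3 days. Krt2, a keratin of the upper epidermis, was at 1.34, 0.545 and 3.57 CPM in control and at 8.32, 7.12 and 20.9 CPM under s-GAG, a fitted log2 fold change of 2.99 ± 0.54 (SE, n = 3 days) at an adjusted p of 0.298 by edgeR. Of 16 sebaceous gland genes, 9 were higher on all 3 days and 1 was at an unadjusted p under 0.05, with a median of 0.61. Awat1, an enzyme of sebum wax synthesis, was at 30.2, 22.3 and 48.6 CPM in control and at 57.9, 46.3 and 399 CPM under s-GAG, so its groups overlapped. Of 22 genes of cholesterol synthesis, 9 were higher on all 3 days with a median of 0.72, and 8 had libraries that did not overlap, while 1 was at an unadjusted p under 0.05. Of 18 adipocyte genes, 5 were higher on all 3 days and 1 was at an unadjusted p under 0.05. Over all genes tested, 14.4% were higher on all 3 days, 10.1% were higher without overlap and 5.56% were higher at that p. The 1 member at that p in each of the sebaceous, cholesterol and adipocyte lists is near this last share. Retn, the adipocyte hormone resistin, was at 2.44, 1.57 and 1.52 CPM in control and at 6.08, 7.12 and 27.8 CPM under s-GAG.

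The genes with the smallest p were not all members of the hair follicle list, and which cells express them was not examined. Pinlyp, a member of the LY6/PLAUR domain family on chromosome 1, had the smallest of all. It was at 0.294, 0.613 and 1.37 CPM in control and at 8.21, 10.1 and 28.3 CPM under s-GAG, and its folds of 27.9, 16.4 and 20.7 were close to each other over the days. The fitted log2 fold change was 4.37 ± 0.47 (SE, n = 3 days) at an adjusted p of 0.0781 by edgeR, which missed the threshold. Tm4sf4, a tetraspan membrane protein, had 2, 0 and 2 reads in control and 48, 77 and 212 reads under s-GAG. Micalcl was at 2.35, 3.48 and 7.87 CPM in control and at 23.5, 26.2 and 70.1 CPM under s-GAG, with an adjusted p of 0.19 by edgeR. Golga7b, a relative of a Golgi protein, was at 1.13, 0.613 and 5.33 CPM in control and at 11.5, 10.8 and 40.5 CPM under s-GAG, with the same adjusted p of 0.19. In all 4 genes the lowest s-GAG library lay above the highest control library.

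Several of the next genes encode signals and receptors. Pthlh, a parathyroid hormone-like peptide made by keratinocytes, was at 0.462, 0.545 and 0.88 CPM in control and at 4.76, 8.92 and 20.3 CPM under s-GAG, with folds of 10.3, 16.4 and 23.0. Edn2, an endothelin peptide, had 3, 2 and 2 reads in control and 21, 68 and 52 reads under s-GAG. Fzd10, a frizzled receptor for Wnt ligands, was at 1.43, 0.818 and 2.40 CPM in control and at 7.34, 7.54 and 12.9 CPM under s-GAG. Car2, a carbonic anhydrase, had 31, 26 and 27 reads in control and 109, 453 and 268 reads under s-GAG, which were folds of 4.81, 6.57 and 13.9. Cib2, a calcium- and integrin-binding protein, and Krt84, a hair and nail keratin, completed the 10, with fitted log2 fold changes of 2.68 and 7.54. The adjusted p of these 6 genes lay between 0.22 and 0.246 by edgeR.

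**Figure D2:**
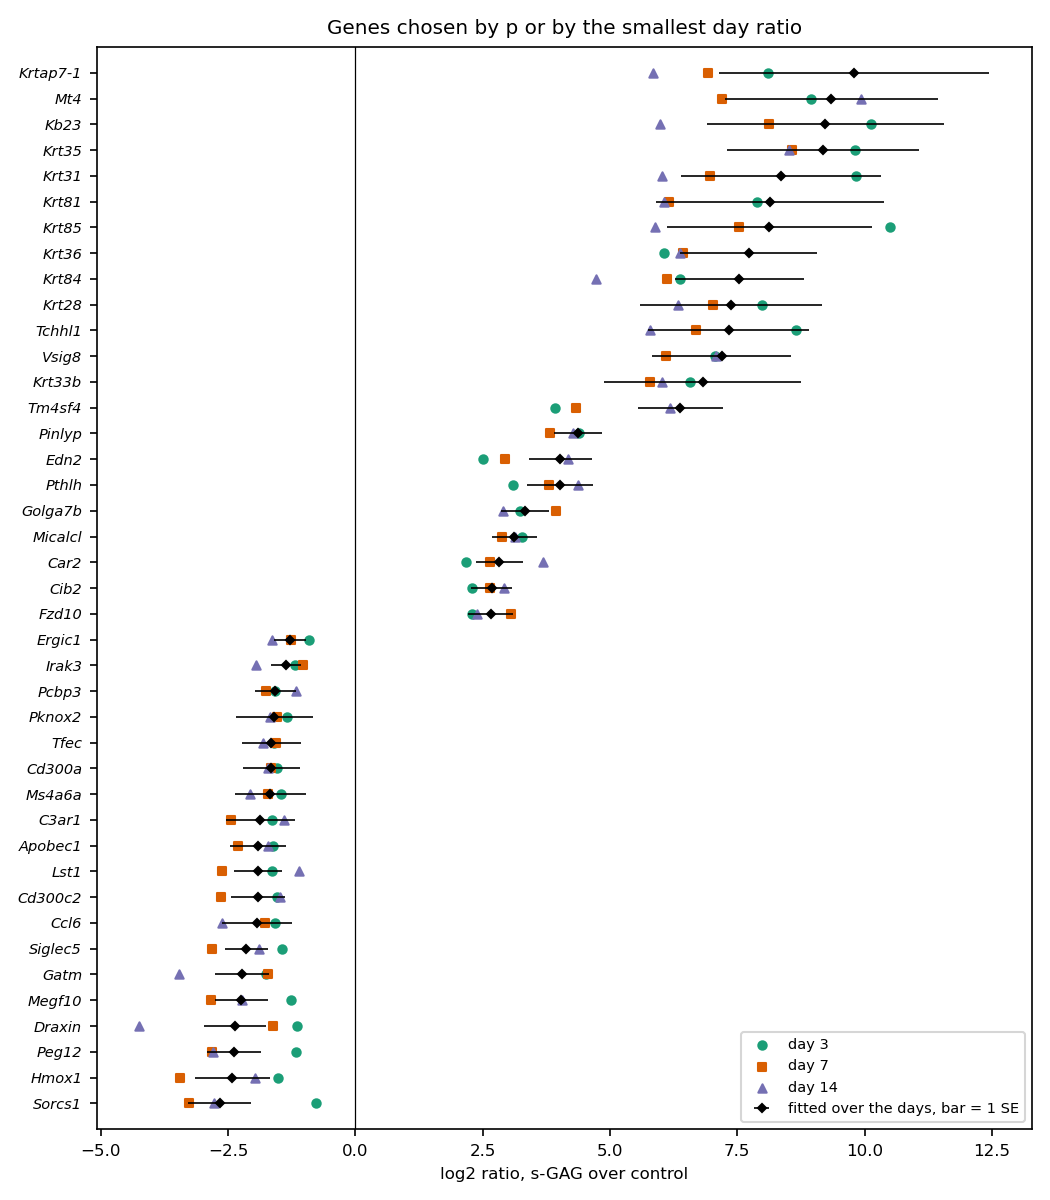
Log2 ratio of s-GAG to control on day 3 (circle), day 7 (square) and day 14 (triangle), with the fitted log2 fold change and its standard error, for the genes with the smallest p and for those with the largest smallest day ratio in each direction. The 3 days of Pinlyp lie between 3.83 and 4.39, whereas those of Gatm lie between -3.46 and -1.71.

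Genes of macrophages were lower under s-GAG. Of 16 tested pan-macrophage markers, 12 were lower on all 3 days, 0 were higher on all 3, and 8 were at an unadjusted p under 0.05, with 9 whose libraries did not overlap. The median of the fitted log2 fold changes was -1.29, and the day medians were -0.91, -1.43 and -1.31. The summed level of the list was 4290, 2920 and 2323 CPM in control and 1898, 1085 and 866 CPM under s-GAG. None was at an adjusted p under 0.05 by edgeR, and DESeq2 called 1 of them lower. The 8 members at an unadjusted p under 0.05 became 1 without the s-GAG day 14 library, 2 without control day 3 or s-GAG day 7, 3 without the whole of day 7 and 5 without control day 7, and they became 10 without s-GAG day 3. The median stayed between -0.96 and -1.74 in all of these. The summed keratinocyte level was higher in the same s-GAG libraries, as given above, and the part of tissue make-up in the macrophage and hair follicle differences was not tested.

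Csf1r, the receptor for macrophage colony-stimulating factor, was at 114, 121 and 129 CPM in control and at 55.8, 46.0 and 26.9 CPM under s-GAG. Control was even over the days, s-GAG day 14 was the lowest, and the groups did not overlap. Its level was lower by folds of 2.05, 2.62 and 4.79, and the fitted log2 fold change was -1.48 ± 0.51 (SE, n = 3 days) at an adjusted p of 0.497 by edgeR. Adgre1, the F4/80 antigen of macrophages, was at 38.6, 66.3 and 44.5 CPM in control and at 16.2, 12.6 and 8.20 CPM under s-GAG. Lyz2, the lysozyme of myeloid cells and the most abundant of the list in reads, was at 2505, 1414 and 781 CPM in control and at 1017, 482 and 312 CPM under s-GAG, so the s-GAG day 3 level lay above the control day 14 level. Each day of Lyz2 was lower by a similar fold, of 2.46, 2.93 and 2.50. Ctss, a lysosomal protease used in antigen presentation, was at 159, 89.1 and 84.7 CPM in control and at 56.8, 42.3 and 21.8 CPM under s-GAG.

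Markers of the alternatively activated (M2) state showed the same direction as the pan-macrophage genes. Of 13 tested, 10 were lower on all 3 days and 6 were at an unadjusted p under 0.05, with a median of -1.25 and 7 whose libraries did not overlap. Msr1, a scavenger receptor, was at 53.4, 92.8 and 18.4 CPM in control and at 21.7, 13.9 and 4.23 CPM under s-GAG. Stab1, a further scavenger receptor, was at 48.6, 146 and 45.4 CPM in control and at 24.6, 32.3 and 17.0 CPM under s-GAG. Mrc1, the mannose receptor, was at 190, 480 and 357 CPM in control and at 144, 195 and 38.6 CPM under s-GAG, and its groups overlapped by the s-GAG day 7 level. The 6 members at an unadjusted p under 0.05 became 0 without day 7 or without either library of that day, 2 without the whole of day 3, 3 without s-GAG day 14 and 4 without control day 3. Of 14 markers of the classically activated (M1) state, 9 were lower on all 3 days and 2 were at an unadjusted p under 0.05, with a median of -0.78. Nos2, the inducible nitric oxide synthase, was at 11.7, 19.4 and 0.733 CPM in control and at 2.87, 10.2 and 0.205 CPM under s-GAG. Fcgr1a, a high-affinity antibody receptor, was at 51.5, 26.2 and 15.4 CPM in control and at 14.8, 9.46 and 7.58 CPM under s-GAG. Whether the M1 and M2 lists differed from each other was not tested.

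The 10 lower genes with the smallest p included several of myeloid cells. Siglec5, a sialic acid-binding lectin of myeloid cells on chromosome 1, was at 35.1, 92.4 and 24.2 CPM in control and at 12.9, 13.0 and 6.42 CPM under s-GAG. The groups did not overlap, and the level was lower by folds of 2.73, 7.09 and 3.78. The fitted log2 fold change was -2.14 ± 0.42 (SE, n = 3 days) at an adjusted p of 0.381 by edgeR. Irak3, which restrains Toll-like receptor signalling, was at 38.5, 37.4 and 29.8 CPM in control and at 16.8, 18.3 and 7.58 CPM under s-GAG. Lst1, a leukocyte transcript, was at 6.63, 9.68 and 3.37 CPM in control and at 2.07, 1.49 and 1.5 CPM under s-GAG. Gatm, the enzyme that starts creatine synthesis, was at 15.4, 9.34 and 7.82 CPM in control and at 4.48, 2.78 and 0.615 CPM under s-GAG, lower by folds of 3.43, 3.36 and 12.7. The remaining 6, Peg12, Megf10, Sorcs1, Ergic1, Draxin and Pcbp3, had fitted log2 fold changes between -2.66 and -1.29 and were in none of the lists.

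The promoters of Adgre1 and Siglec5 are shown as examples of myeloid genes that held GAGGAAG, the letters bound by the myeloid factor PU.1. They are given in the same form as those of the hair keratins, with the match in capitals. The intervals are chr9:2329190-2329439 for Adgre1 and chr1:102904656-102904905 for Siglec5, both on the plus strand of GRCr8.
Adgre1: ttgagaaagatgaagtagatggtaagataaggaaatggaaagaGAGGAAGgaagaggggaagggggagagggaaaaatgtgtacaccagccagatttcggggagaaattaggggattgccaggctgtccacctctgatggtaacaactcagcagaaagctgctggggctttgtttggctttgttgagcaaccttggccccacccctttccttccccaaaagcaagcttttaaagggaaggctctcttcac
Siglec5: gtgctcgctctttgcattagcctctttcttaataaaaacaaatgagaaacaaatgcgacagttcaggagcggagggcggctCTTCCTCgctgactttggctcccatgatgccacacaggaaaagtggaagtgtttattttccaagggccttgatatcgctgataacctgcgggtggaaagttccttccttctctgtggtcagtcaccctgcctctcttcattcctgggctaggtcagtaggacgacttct
The match began 207 bases before the start in Adgre1 and 169 in Siglec5, where it lies on the other strand and reads CTTCCTC. The promoter of Cd300a, a further myeloid gene, held no match. The motif was found on either strand in 6 of the 11 pan-macrophage markers with a promoter in the table (54.5%), a list without Siglec5. It was found in 10.1% of all promoters and in 0 of the 23 hair follicle promoters. CTTTGAA or CTTTGTT was found in 4 of the 11 (36.4%). Spi1, which encodes PU.1, had log2 ratios of -0.88, -1.50 and -0.26 on the 3 days, with a fitted log2 fold change of -0.89.

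Ranked by the smallest day ratio, the lower genes again held several of myeloid cells. Hmox1, the heme oxygenase induced in macrophages and by oxidative stress, was at 50.3, 248 and 22.6 CPM in control and at 17.4, 22.6 and 5.74 CPM under s-GAG, lower by folds of 2.89, 10.9 and 3.95. The s-GAG day 7 level of Hmox1 lay just below the control day 14 level. Ccl6, a chemokine of myeloid cells, was at 42.3, 22.5 and 33.7 CPM in control and at 14.2, 6.51 and 5.40 CPM under s-GAG. Cd300a, Cd300c2 and Ms4a6a, surface proteins of myeloid cells, had fitted log2 fold changes of -1.65, -1.92 and -1.67. Apobec1, a cytidine deaminase, was at 46.5, 51.1 and 26.6 CPM in control and at 15, 10.3 and 7.99 CPM under s-GAG. Tfec, a transcription factor of macrophages, had a fitted log2 fold change of -1.65, and Pknox2, a homeobox factor, one of -1.59.

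Complement genes, many of which macrophages express, were lower as well. Of 20 tested, 10 were lower on all 3 days, 0 were higher on all 3, and 4 were at an unadjusted p under 0.05, with a median of -0.85. C3ar1, the receptor for the C3a fragment, was at 26.9, 19.1 and 7.58 CPM in control and at 8.61, 3.45 and 2.80 CPM under s-GAG. The 4 became 1 without control day 3 or without s-GAG day 7.

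**Figure D3:**
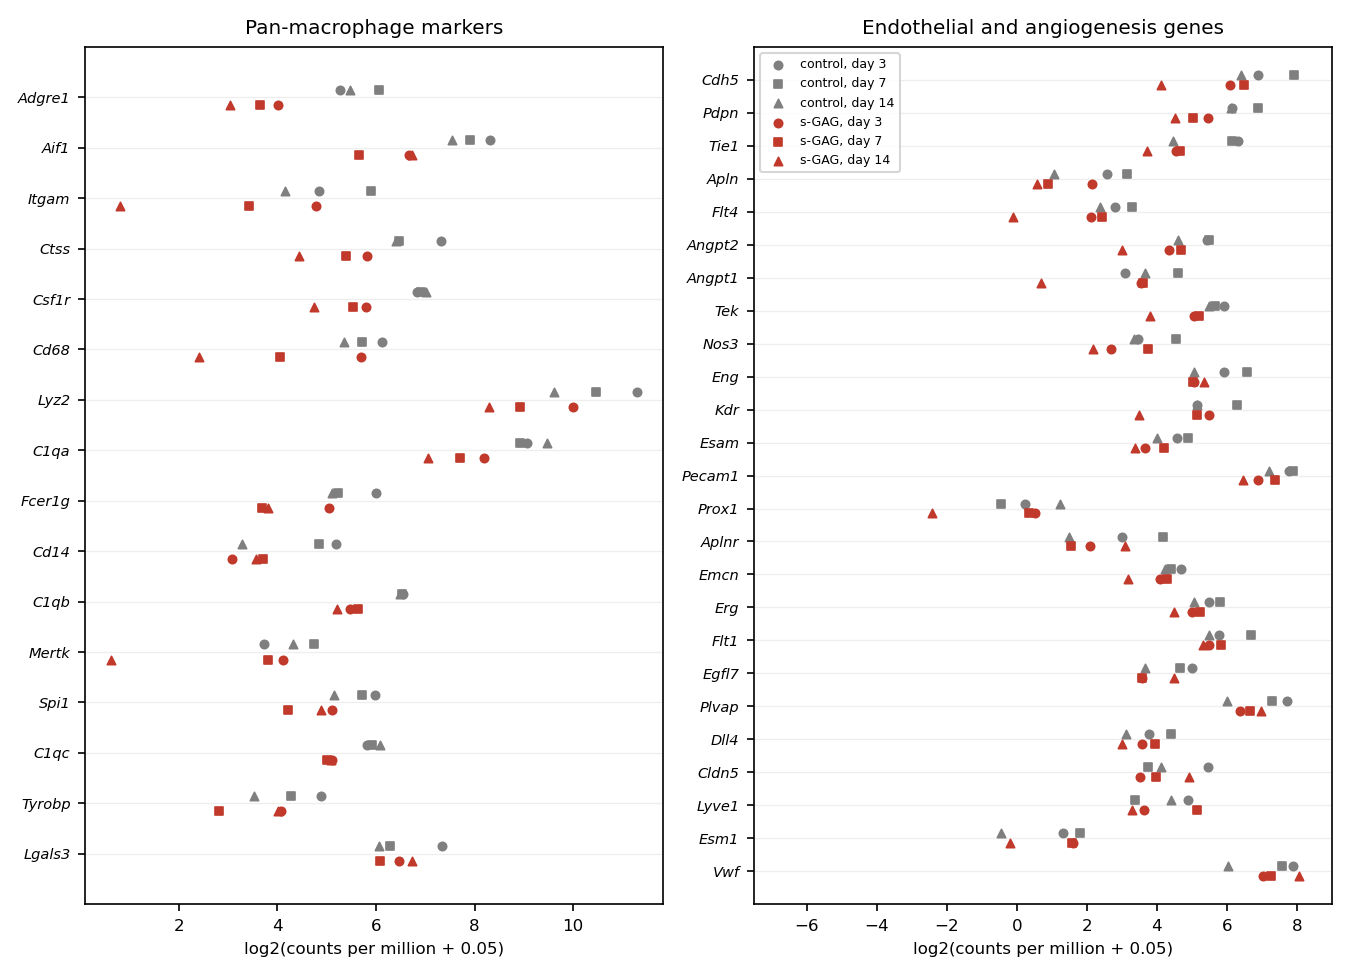
Levels of pan-macrophage and endothelial genes, as log2 of CPM plus a small constant, in the control (grey) and s-GAG (red) libraries of day 3 (circle), day 7 (square) and day 14 (triangle). Most s-GAG symbols lie below the control symbols, with less overlap in the macrophage genes (9 of 16 without overlap) than in the endothelial genes (2 of 25). Over all genes tested, 7.07% were lower without overlap.

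Endothelial and angiogenesis genes were lower by a smaller median ratio. Of 25 tested, 14 were lower on all 3 days, 0 were higher on all 3, and 7 were at an unadjusted p under 0.05. The day medians were -0.80, -0.79 and -0.75, yet only 2 of the 25 had libraries that did not overlap. That is near the 7.07% of all genes tested that were lower without overlap. The summed level was 1448, 1647 and 799 CPM in control and 787, 950 and 776 CPM under s-GAG, so the groups overlapped and the sums of day 14 were nearly equal. Single genes also varied by day. Cdh5, the cadherin of endothelial junctions, was at 119, 242 and 84.1 CPM in control and at 68.1, 89.8 and 17.4 CPM under s-GAG, lower by folds of 1.74, 2.69 and 4.83. Tie1, an endothelial receptor kinase, was at 79.0, 70.3 and 22.2 CPM in control and at 23.3, 25.2 and 13.1 CPM under s-GAG, lower by folds of 3.38, 2.79 and 1.69. Pecam1, the pan-endothelial surface protein, was at 219, 236 and 148 CPM in control and at 118, 165 and 87.7 CPM under s-GAG. Without the control day 7 library 0 of the 25 were at an unadjusted p under 0.05, and without day 3 there were 2.

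Inflammatory mediators followed in part. Of 22 inducible inflammatory mediators, 9 were lower and 2 were higher on all 3 days, and 4 were lower at an unadjusted p under 0.05, with a median of -0.69. Il33, an alarmin of the interleukin-1 family, was at 109, 137 and 92.1 CPM in control and at 48.4, 29.4 and 12.1 CPM under s-GAG, and its groups did not overlap. Its level was lower by folds of 2.25, 4.67 and 7.62. Nlrp3, the inflammasome sensor, was at 7.72, 10.8 and 5.38 CPM in control and at 4.02, 2.11 and 1.23 CPM under s-GAG. Tlr5, the flagellin receptor, was at 15, 11 and 12.7 CPM in control and at 7.29, 5.25 and 5.26 CPM under s-GAG. Chemokines were split, with 4 higher and 4 lower on all 3 days among 21, 2 higher and 3 lower at an unadjusted p under 0.05, and a median of -0.27. Ccl11, which attracts eosinophils, was at 1.93, 0.613 and 0.831 CPM in control and at 5.62, 3.65 and 3.55 CPM under s-GAG, whereas Pf4, a platelet and macrophage chemokine, was at 60.7, 67.8 and 19.6 CPM in control and at 26.5, 10.1 and 13.2 CPM under s-GAG.

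Among 20 genes of the STAT3 pathway, 9 were lower and 1 was higher on all 3 days, 2 were lower at an unadjusted p under 0.05, and the median was -0.58. Il10ra, a receptor chain for interleukin-10, was at 48.8, 44.4 and 27 CPM in control and at 25.9, 14.1 and 3.96 CPM under s-GAG. Of 10 neutrophil markers, 2 were lower and 1 was higher on all 3 days, 1 in each direction was at an unadjusted p under 0.05, and the median was -1.06. Csf3r, the receptor for granulocyte colony-stimulating factor, was at 8.27, 25.9 and 4.30 CPM in control and at 2.87, 1.60 and 1.37 CPM under s-GAG. Padi4, an enzyme of neutrophils that converts arginine to citrulline, lay on the other side of the list, at 0.84, 1.70 and 1.61 CPM in control and at 6.31, 8.08 and 23.3 CPM under s-GAG. Of 16 genes of antigen presentation by MHC class II, 4 were lower on all 3 days, 2 were lower at an unadjusted p under 0.05, and the median was -0.53.

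Lymphoid and other immune lists had no common direction, beside 14.4% of all genes tested that were higher and 12.9% that were lower on all 3 days. Among 20 T and NK cell markers, 3 were lower on all 3 days and 1 was at an unadjusted p under 0.05, and the median was -0.02. That one was Cd4, which rat macrophages also carry, at 278, 364 and 304 CPM in control and at 177, 125 and 85.8 CPM under s-GAG. Of 5 B and plasma cell markers tested, 2 were higher at an unadjusted p under 0.05, with a median of 0.19, and one of these was Sdc1, which keratinocytes also express. Of 9 mast cell markers, 1 was higher on all 3 days and 0 were at an unadjusted p under 0.05, with a median of 0.34. Of 30 interferon response genes, 7 were lower on all 3 days and 1 was at an unadjusted p under 0.05, and their day medians of -1.57, 1.11 and -2.16 did not share a sign.

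Genes of heparan sulfate and other glycosaminoglycan chains went both ways. Of 36 tested, 9 were higher and 6 were lower on all 3 days, and at an unadjusted p under 0.05 there were 7 higher and 3 lower, with a median of -0.20. Has3, a hyaluronan synthase, was at 0.336, 1.16 and 1.08 CPM in control and at 5.57, 4.11 and 6.90 CPM under s-GAG, with folds of 16.6, 3.55 and 6.41. Sdc1, the syndecan of epithelia, was at 130, 202 and 149 CPM in control and at 351, 532 and 822 CPM under s-GAG. Gpc3 and Gpc4, glypican core proteins, had fitted log2 fold changes of 1.67 ± 0.44 and 1.26 ± 0.43 (SE, n = 3 days), and in Gpc3 the groups did not overlap, with 10.4, 11.3 and 16.3 CPM in control and 34.3, 28.1 and 64.1 CPM under s-GAG. Gpc1, a further glypican, was lower, with log2 ratios of -0.49, -1.28 and -1.49 on the 3 days. The syndecan and glypican genes thus had both signs.

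Of 27 heparin-binding growth factors, 6 were higher and 6 were lower on all 3 days (14.4% and 12.9% over all genes), and the median was 0.02. At an unadjusted p under 0.05, Shh and Bmp4 were higher and Fgf7 and Hgf were lower. Bmp4, a bone morphogenetic protein active in the follicle, was at 6.34, 3.34 and 13.6 CPM in control and at 13.4, 12 and 29.4 CPM under s-GAG. Bmp7 was at 3.78, 2.25 and 6.70 CPM in control and at 13.3, 17.9 and 18.6 CPM under s-GAG. Areg, an epidermal growth factor receptor ligand, was at 2.90, 1.70 and 3.86 CPM in control and at 6.37, 7.95 and 10.9 CPM under s-GAG. Fgf7 and Hgf, growth factors that fibroblasts make for epithelium, had fitted log2 fold changes of -1.08 and -1.36.

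Collagens and matrix glycoproteins had day medians of both signs. Fibroblast markers and matrix proteases and inhibitors had negative day medians on every day. Over all genes tested, 14.4% were higher and 12.9% were lower on all 3 days, and 3.7% were lower at an unadjusted p under 0.05. Of 23 collagens, 1 was higher and 2 were lower on all 3 days, and the day medians were 1.24, -2.24 and -1.73. Col1a1, the main collagen of dermis, was at 1633, 15139 and 10393 CPM in control and at 6874, 2241 and 4644 CPM under s-GAG, so it was higher on day 3 and lower on days 7 and 14. Of 29 matrix glycoproteins and crosslinkers, 4 were lower on all 3 days, which is near the share over all genes. Of the 29, 2 were at an unadjusted p under 0.05, and the median was -0.66. Their day medians were 0.37, -1.56 and -0.90. Of 27 matrix proteases and inhibitors, 7 were lower and 1 was higher on all 3 days, and the median was -0.61. Of the 27, 1 was at an unadjusted p under 0.05, which is near the share over all genes. Their day medians were -0.11, -1.31 and -0.46. Their summed level was 2350, 3652 and 3081 CPM in control and 2182, 2217 and 1977 CPM under s-GAG. Of 17 fibroblast markers, 5 were lower and 1 was higher on all 3 days and 3 were lower at an unadjusted p under 0.05, with a median of -0.67. Their day medians were -0.16, -1.22 and -0.79, and 5 of the 17 were lower without overlap (7.07% over all genes). Their summed level was 3543, 3192 and 3700 CPM in control and 2275, 2255 and 1695 CPM under s-GAG. Prrx1, a fibroblast homeobox factor, was at 203, 253 and 197 CPM in control and at 125, 83.8 and 121 CPM under s-GAG. Of 16 smooth muscle and myofibroblast genes, 2 were higher and 1 was lower on all 3 days, with 0 at an unadjusted p under 0.05 and a median of -0.27.

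The remaining lists are given beside 14.4% higher and 12.9% lower on all 3 days over all genes tested. At an unadjusted p under 0.05 the shares over all genes were 5.56% higher and 3.7% lower. Proliferation, immediate early, and metallothionein and antioxidant genes exceeded the 14.4%, and the last of these lists also exceeded the 12.9%. The s-GAG day 14 library was high in genes of the respiratory chain, whose summed level was 7890 CPM there against 2793 to 4142 CPM in control, and 0 of 24 had a shared direction over the days. Of 32 sarcomere genes, 4 were higher and 2 were lower on all 3 days and 1 was at an unadjusted p under 0.05, Myl2, at 0.882, 0.613 and 0.636 CPM in control and 18.0, 6.25 and 83.0 CPM under s-GAG. Of 30 proliferation genes, 6 were higher on all 3 days and 1 was at an unadjusted p under 0.05, Mki67, at 134, 249 and 116 CPM in control and at 347, 299 and 334 CPM under s-GAG. The summed level of the proliferation list was 599 to 1355 CPM in control and 1394 to 1681 CPM under s-GAG, without overlap. Of 26 genes of glycolysis and hypoxia 3 were higher and 1 was lower on all 3 days, with a median of 0.01. Of 15 nerve and Schwann cell genes 2 were higher and 2 were lower on all 3 days, and of 10 erythroid genes 1 was higher. Of 21 immediate early genes 5 were higher on all 3 days and 4 were at an unadjusted p under 0.05, with a median of 0.20. Of 17 metallothionein and antioxidant genes 4 were higher and 3 were lower on all 3 days, with 4 higher and 2 lower at an unadjusted p under 0.05. Of 15 housekeeping genes 1 was lower on all 3 days and 0 were at an unadjusted p under 0.05. Their summed level was 11676 CPM in s-GAG day 14, 5579 and 5916 CPM on the other s-GAG days and 5891 to 8442 CPM in control. As a share of reads it was 0.867% in s-GAG day 14 and 0.841% in control day 3.

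**Figure D4:**
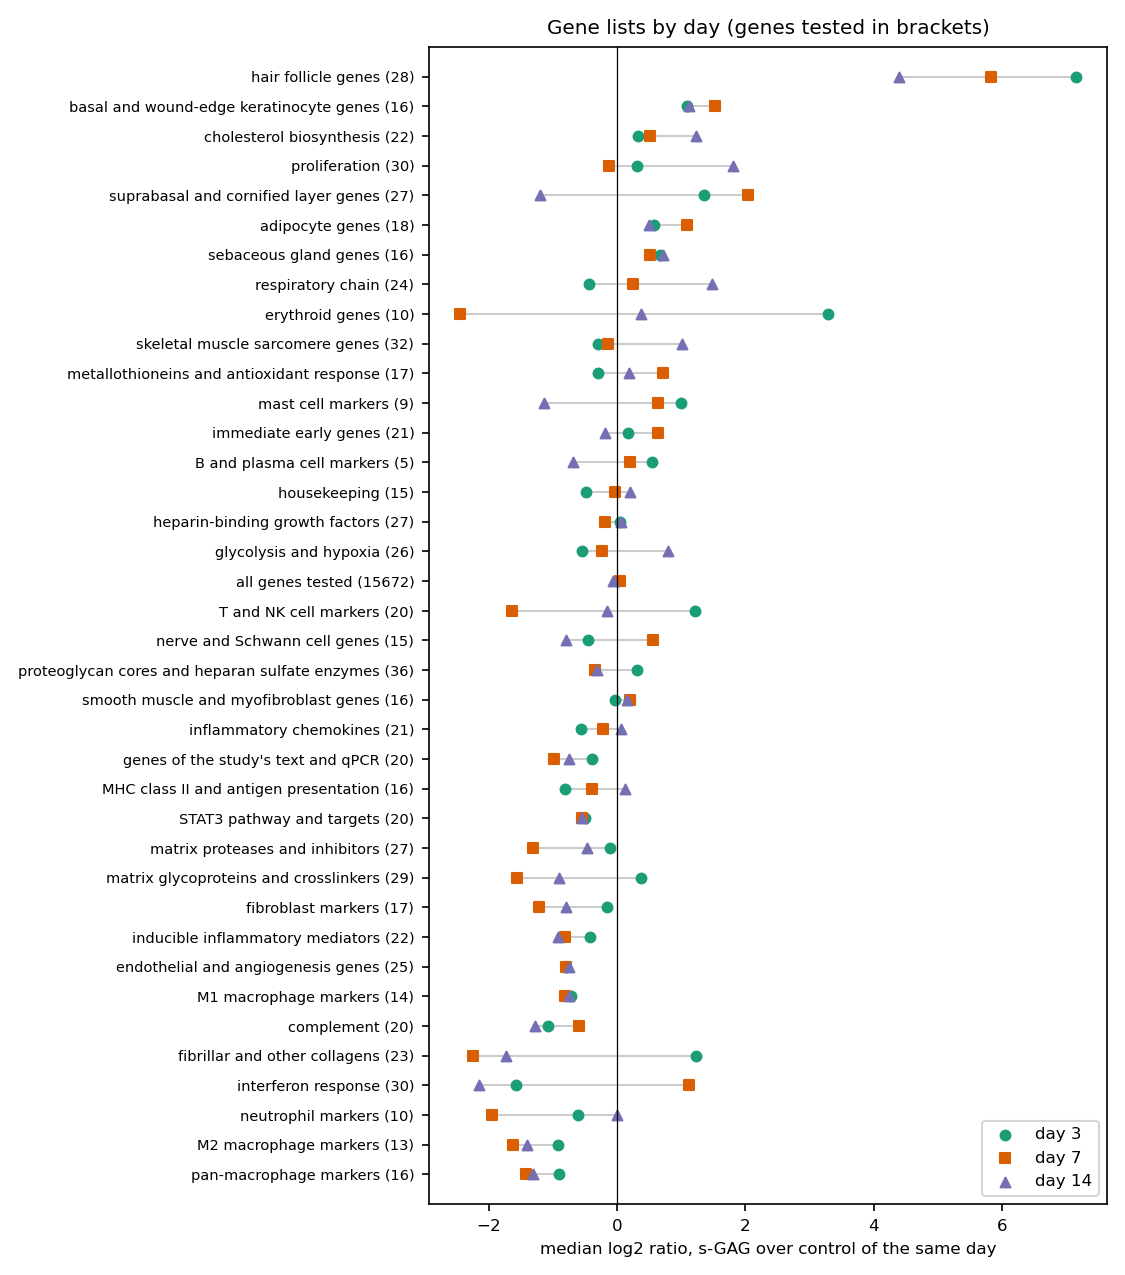
Median log2 ratio of s-GAG to control over the members of each of the 37 gene lists and over all genes tested, on day 3 (circle), day 7 (square) and day 14 (triangle). Hair follicle genes lie far to the right at 7.15, 5.83 and 4.40, and the 3 days of the macrophage and endothelial lists lie together on the left.

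The genes that the study's text names for RNA sequencing and qPCR were read as a list. The study reports them mainly for d-SMG against control, and the control libraries are shared with this comparison. Their direction is therefore not independent evidence. Of 20 tested, 10 were lower and 1 was higher on all 3 days, and 1, Tlr5, was at an unadjusted p under 0.05. Il1b, an inflammatory cytokine, was at 11.3, 27.6 and 11.5 CPM in control and at 8.21, 9.0 and 6.56 CPM under s-GAG, and Il18, a related cytokine, was at 7.72, 6.68 and 6.89 CPM in control and at 5.28, 4.27 and 4.78 CPM under s-GAG. Tnf was at 2.22, 1.02 and 0.733 CPM in control and at 1.78, 0.926 and 0.41 CPM under s-GAG. Il10, an anti-inflammatory cytokine, was at 1.81, 1.43 and 1.27 CPM in control and at 0.861, 0.592 and 0.0683 CPM under s-GAG. Cd163 and Mrc1, receptors of tissue macrophages, had fitted log2 fold changes of -1.24 ± 1.18 and -1.41 ± 0.86 (SE, n = 3 days). Vegfa, the endothelial growth factor, was at 94.4, 101 and 92.7 CPM in control and at 126, 122 and 44.1 CPM under s-GAG, and Arg1, an M2 enzyme, was at 8.02, 90.9 and 3.81 CPM in control and at 8.89, 11.6 and 9.83 CPM under s-GAG.

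The s-GAG libraries were then set beside those of the other dressings, d-SMG and Alg, in the same fit. No gene passed an adjusted p of 0.05 by edgeR in either direction (0%), and 336 genes (2.14%) were higher and 181 (1.15%) lower at an unadjusted p under 0.05. This contrast shares its s-GAG libraries with the comparison above. Of the 28 hair follicle genes 5 were higher at an unadjusted p under 0.05, with a median of 1.84. The summed level of the hair follicle list was 3329, 2283 and 5649 CPM under s-GAG, 8.53, 1033 and 1522 CPM under d-SMG and 1406, 202 and 10935 CPM under Alg, against 30.6, 35.2 and 363 CPM in control. Thus Alg day 14 was the highest of all 12 libraries and d-SMG day 3 the lowest, and the level under these dressings spread more widely than under s-GAG. Pan-macrophage genes had a median of -0.54 in this contrast with 0 of 16 at an unadjusted p under 0.05.

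Tm4sf4, at 2.75, 1.98 and 14.5 CPM under s-GAG, was at 0.0804, 0.184 and 1.64 CPM under d-SMG and at 0.734, 0.136 and 3.48 CPM under Alg. Micalcl, at 3.46, 6.36 and 25.3 CPM under d-SMG and 15.1, 9.31 and 20.1 CPM under Alg, lay below s-GAG on every day. Golga7b, Lgals4, a galectin of epithelia, and Scgb2a1, a secretoglobin, were the other 3 of the 5 higher genes with the smallest p, with log2 fold changes of 1.65, 2.45 and 3.11. The 5 lower genes were Tnfrsf10b, a death receptor, Gp6, the collagen receptor of platelets, Irak3, Col6a4 and Arap3, with log2 fold changes of -1.74, -1.43, -0.99, -1.66 and -0.89. Their smallest adjusted p, 0.889 by edgeR, was that of all genes in this contrast.

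**Figure D5:**
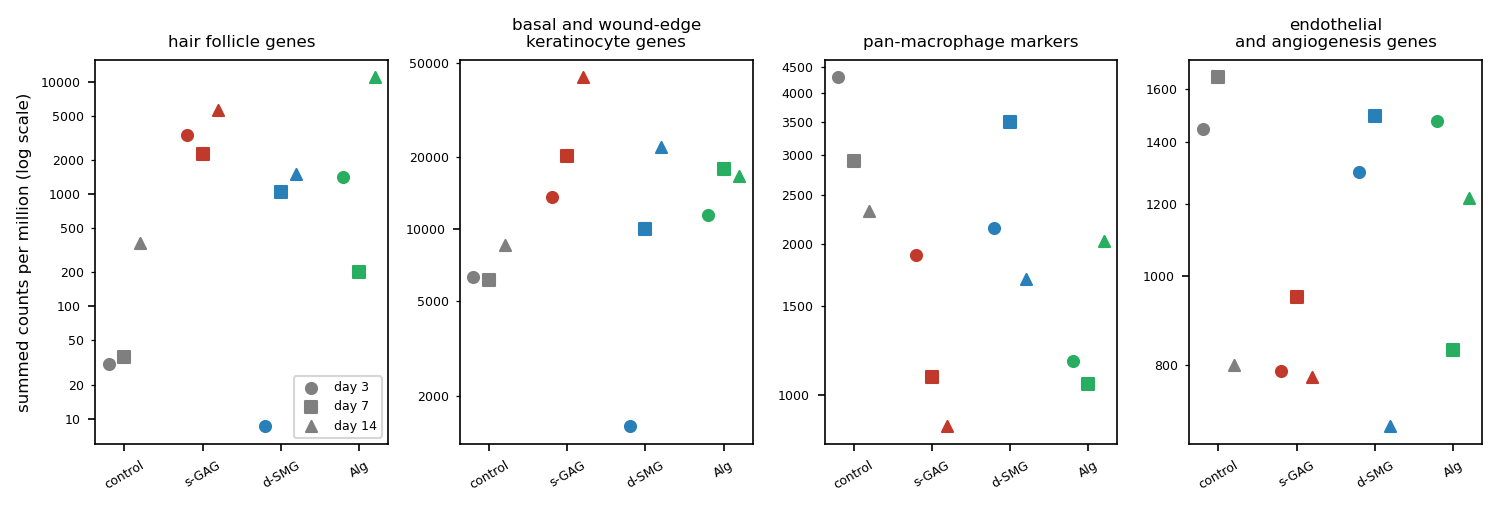
Summed CPM, on a log axis, of 4 gene lists in each of the 12 libraries by group, with day 3 (circle), day 7 (square) and day 14 (triangle). Hair follicle genes lie between 2283 and 5649 under s-GAG and between 30.6 and 363 in control, and from 8.53 to 10935 under the other dressings.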

How the data were processed

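The authors collected wound tissue, extracted total RNA, and sequenced rRNA-depleted, stranded libraries as paired reads. The submitters' processing notes name bcl2fastq, FastQC, TopHat2 and edgeR without versions, and the genome build of the files was not given in the sources used here. Per the file headers, the deposited tables hold counts of reads per gene and FPKM values, one column per library, with 25620 and 25524 genes. Each of these files had 1 column that matched no sample and was not used. Groups and days came from the sample labels.

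Counts were fitted with edgeR 4.0.16 in R 4.3.3 (TMM scaling, filterByExpr, quasi-likelihood test, day plus treatment over all 12 libraries, contrast s-GAG minus control, Benjamini-Hochberg adjustment over 15672 genes). The common biological coefficient of variation was 0.492 with 6 residual degrees of freedom. The reads per library, from 13748887 to 38302461 over the 12, limit the precision of genes with few reads, and exact Clopper-Pearson intervals at 95% for a day ratio cover counting error only. Day ratios are log2 differences of CPM with a prior count of 2. DESeq2 1.42.0 and limma 3.58.1, the latter on the deposited FPKM as log2 with a pseudocount of 1 or 0.1, were alternatives, and the fit was tested on simulated data. The other alternatives were scaling, the low-count filter, the libraries in the fit, and days or libraries left out.

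Genes were named by 5 rules. A rule on p took the 10 with the smallest p in each direction, provided that some library of the 6 held 50 reads or more. The rule on day ratio took the 12 in each direction with the largest smallest day ratio. It asked for at least 100 reads in the higher library of each day, so control could hold few. Up to 4 members of each of 37 lists were named, and so were the genes of the study's text and qPCR. The last rule took the 5 in each direction with the smallest p against the other dressings. Provisional symbols were left out of the rules on p and day ratio. A gene that the rules named is not reported here. Other members of the hair follicle list and a few list members at an unadjusted p under 0.05 were named after their values were seen. The members and lists were chosen with earlier results of these data known. Of 803 list members 793 were found in the table, 6 by an older symbol, and 22277 of the 25620 symbols matched RefSeq, which gave the promoter sequences on GRCr8. The lists describe counts and medians only, and no set test was run.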

Additional observations from a re-analysis of the deposited data

Results flagged for a closer look

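In 5 lists the highest and the lowest day median were of opposite sign and each at least 1 in size, and with 1 library per group and day the difference between the days was not tested. T and NK cell markers had a median log2 ratio of 1.22 on day 3 and -1.64 on day 7, a span of 2.86. Interferon response genes had a median of 1.11 on day 7 and -2.16 on day 14, a span of 3.27. Collagens had a median of 1.24 on day 3 and -2.24 on day 7, a span of 3.48. Suprabasal and cornified layer genes had a median of 2.04 on day 7 and -1.20 on day 14, a span of 3.24. Erythroid genes had a median of 3.29 on day 3 and -2.45 on day 7, a span of 5.74.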

How the results depend on the processing

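The s-GAG against control comparison gave 0 calls at an adjusted p of 0.05 under RLE or library-size scaling, a filter of 50 reads, FPKM with either pseudocount and every day or library left out (0 to 0), 1 call with no low-count filter, 12 with the 6 libraries alone, 24 with these and no block (added after seeing the data), 287 with DESeq2 (256 higher, 31 lower), and 1451 at an unadjusted p under 0.05. The last count was 882 with library size and ranged from 639 to 2262 with a day or library left out. Against the other dressings DESeq2 gave 1 call, the unadjusted p gave 517 genes by edgeR and 797 by DESeq2, library size gave 261 (94 higher, 167 lower, against 336 and 181), and leaving out a day gave 324 to 723, with 0 to 0 calls. Genes with a shared direction numbered 4118 to 5402 under all alternatives. Library-size scaling moved all genes by 0.14, 0.046 and -0.44 in log2 ratio on days 3, 7 and 14.

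Libraries of the same day did not deviate together over genes (correlations of their deviations of -0.364, 0.097 and -0.236 on days 3, 7 and 14). Without the replicate block there were 0 calls and 1687 genes at an unadjusted p under 0.05, and 0 and 631 against the other dressings.

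Some named genes changed sign. Ccl5 was at 0.043 with library size and 0.059 with DESeq2, and Vegfa at 0.023 without the block. With a day left out in turn the fitted log2 fold changes of those that changed sign ranged as follows: Acta1 (-0.32 to 0.86), Alas2 (-2.97 to 1.13), Arg1 (-1.62 to 0.67), Ccl5 (-1.84 to 0.95), Ckm (-0.9996 to 2.41), Cma1 (-0.029 to 1.14), Col1a1 (-1.93 to 0.51), Cox4i1 (-0.051 to 1.47), Cyc1 (-0.27 to 1.60), Jak3 (-0.64 to 0.28), Pdgfa (-0.61 to 1.36), Ppia (-0.23 to 1.67), Rplp0 (-0.36 to 1.85), S100a8 (-0.70 to 0.90), Sdhc (-0.24 to 1.80), Synpo2 (-2.89 to 0.38), Tgfb1 (-0.59 to 0.14), Tpsb2 (-0.011 to 1.86), Vegfa (-0.34 to 0.31), Vegfb (-0.65 to 0.36), Xbp1 (-0.54 to 0.013). The cause was not tested.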
